A study of Danio rerio with 6 samples.

Results

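The genes described here encode the tip link of the hair bundle, proteins that are mutated in human Usher syndrome, and relatives or partners of these. They are cdh23, pcdh15a, pcdh15b, ush1c, clrn1, clrn2, the whirlin genes whrna and whrnb, and pdzd7a, a list of 9 genes. Entries of the deposited expression table were taken by gene symbol, which gave 8 entries for 7 of the genes, since cdh23 stands in the table under 2 Ensembl identifiers. whrna and whrnb were found as dfnb31a and dfnb31b, an older symbol of whirlin, through Ensembl identifiers that the reference list of names gives as WHRN. These 10 entries are a small part of the 31701 in the table with a value in every sample, and all 10 passed the filter on low values.

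From the adult zebrafish inner ear, hair cells and the non-sensory cells around them, called nsSCs after the study, were picked up cell by cell with a suction pipette, and 3 samples of 1000 cells were sequenced for each cell type. The fish were females of 11 to 13 months of the line Tg(pou4f3:GAP-GFP)s273t, in which the promoter of the hair cell transcription factor gene pou4f3 drives a membrane-bound GFP, and both cell types came from this line. The utricle, saccule and lagena were combined, and the cells of a sample came from several fish. The paper describes taking both hair cells and nsSCs from each fish, and does not state which samples share fish. Hair cells were taken by GFP and a visible hair bundle, and nsSCs by the absence of both, so that nsSCs are a mixture and not a single cell type. The genes below serve the bundle by which hair cells were chosen, so that their direction is not independent of the collection. The p-values measure the spread between these samples only.

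A hair bundle is a staircase of stereocilia joined by fine extracellular links. The tip link runs from the tip of a stereocilium to the side of its taller neighbor, with cadherin-23 as its upper part and protocadherin-15 as its lower part, and tension on it opens the transduction channel. Harmonin, the product of ush1c, anchors the upper end together with myosin VIIa and SANS, while whirlin and PDZD7 are scaffolds that bind the adhesion receptor ADGRV1 at the ankle links near the base of the stereocilia. In humans, mutations of many of these genes cause deafness, in many cases with loss of vision.

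Levels are given as RPKM, read numbers divided by transcript length and by the mapped reads of the sample, so that genes can be set roughly side by side within a sample. Ratios and shares of different genes also depend on the transcript models and on how shared reads were counted, which was not checked. RPKM carry no counts, and the counting error of a value is unknown. The values of a sample summed to between 704199 and 713194 RPKM in hair cells and between 976739 and 1012812 RPKM in nsSCs. All 14 hair cell marker genes that were looked up were higher in every hair cell sample, with a summed level of 41242 to 42004.5 RPKM against 164 to 169 RPKM in nsSCs. LHX3 was the only one of the 14 listed at 0 in all nsSC samples. These 14 include pou4f3, whose promoter drives the GFP, and several transcripts that the paper lists as enriched in hair cells. Their direction is thus not independent of the collection or of these data. Of marker lists of other cells, 5 of 5 glial entries, 6 of 6 of blood, 5 of 5 of leukocytes and 5 of 5 of connective tissue were higher in every nsSC sample. Their summed levels in nsSCs were 4832 to 5008, 20452 to 24186.6, 402 to 446 and 533 to 558 RPKM, against 177 to 189, 943 to 1020, 7.88 to 9.48 and 14.7 to 17.8 RPKM in hair cells. In hair cells coro1a and mpeg1.1 of leukocytes and lum and postnb of connective tissue were at 0 throughout, and no gene of these 4 lists was at 0 in all nsSC samples. Of 10 markers of other inner ear epithelium, 5 were higher in every hair cell sample (sox2, tecta, otogl, otomp and stm) and 5 keratin, claudin and epcam genes in every nsSC sample, with sums of 488 to 496 and 1732 to 1858 RPKM and none at 0 throughout a cell type. Of 6 neuronal markers, 2 were higher in every hair cell sample and 3 in every nsSC sample, with sums of 29.1 to 32.4 and 31.1 to 35.8 RPKM and none at 0 throughout. Over all 22374 genes tested, every hair cell sample was higher for 42.5% and every nsSC sample for 42.6%. The epithelial and neuronal counts do not stand out from these shares. The part of the nsSC mixture in the differences below was not tested. In such samples a lower share of cells with a transcript and less of it per cell cannot be told apart.

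All 10 entries were higher in hair cells. The test was limma's on log2(RPKM + 0.1), a scale that shrinks the fold of low genes, and calls needed an adjusted p under 0.05 together with a 2-fold difference. Of all 22374 genes tested, 66.4% were called in either direction and 31.0% as higher in hair cells. The samples of the cell types did not overlap for 85.1% of these genes, and for 42.5% every hair cell sample lay above every nsSC sample. A call as higher in hair cells without overlap was made for 10 of the 10 entries, and for 8 of the 8 found by symbol. Among the genes with a mean of 1 RPKM or more in hair cells, which all 10 entries have, 45.2% were called higher in hair cells. The median log2 fold change was 5.30 over the 10 entries, 4.21 over the 8 that were above 0 in nsSCs, and 0.00 over all genes tested. Exact permutation of 3 samples against 3 stops at a p of 0.1, so that every p-value here is limma's, adjusted over all genes tested by the Benjamini-Hochberg method.

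**Figure D1:**
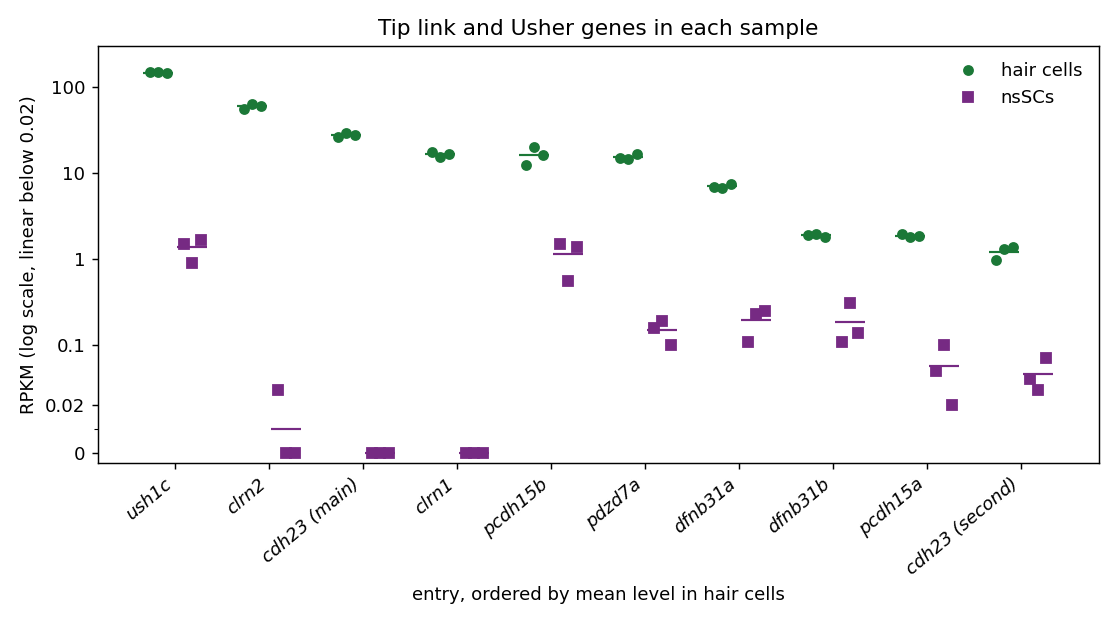
RPKM of the 10 entries in each of the 6 samples, on a log axis that is linear below 0.02 RPKM, with circles for hair cell samples, squares for nsSC samples and a short line at each mean. Circles lie above squares for every entry, from 145 to 148 RPKM for ush1c down to 0.98 to 1.38 RPKM for the second cdh23 entry, while cdh23 (main) and clrn1 were listed at 0 in all nsSC samples.

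The upper part of the tip link was represented by 2 cdh23 entries of very different level. The main entry (ENSDARG00000094454) measured 26.26, 29.37 and 27.58 RPKM across hair cell replicates 1, 2 and 3 and was listed at 0 in all 3 nsSC samples. The hair cell samples thus lay close together, and no nsSC sample held a value. limma called the difference (adjusted p = 7.3e-09), and no fold change is given because the nsSC values are 0. The second entry (ENSDARG00000007561) measured 0.98, 1.31 and 1.38 RPKM across the hair cell samples, against 0.04, 0.03 and 0.07 RPKM across the nsSC samples, so that the groups did not overlap. Its log2 fold change was 3.17 ± 0.19 (SE, limma adjusted p = 4.2e-06). The main entry made up 95.8% ± 0.586 (SD, n = 3) of the summed RPKM of both in hair cells. How reads shared between the entries were counted is not given in the sources used here, so that their ratio is uncertain.

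A further entry outside the list, si:dkey-1m11.5, carries the feature name CDH23 (1 of 2) in the table. It measured 11.83, 9.87 and 11.61 RPKM across the hair cell samples, against 0.13, 0.09 and 0.12 RPKM across the nsSC samples, between the levels of both cdh23 entries in hair cells. It was called higher in hair cells with a log2 fold change of 5.71 ± 0.15 (SE, limma adjusted p = 5.7e-08). The table does not say whether these 3 entries are pieces of a single gene.

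Of the genes for the lower part of the tip link, pcdh15b had the higher level in every sample. In zebrafish, pcdh15a is known as the gene needed for hearing and balance and pcdh15b for its part in photoreceptors. pcdh15b measured 12.46, 20.26 and 16.24 RPKM across hair cell replicates 1, 2 and 3 against 1.49, 0.56 and 1.39 RPKM across nsSC replicates 1, 2 and 3. The groups did not overlap, although the highest hair cell sample was well above the lowest and nsSC replicate 2 was well below the other nsSC samples. The log2 fold change was 3.79 ± 0.36 (SE, limma adjusted p = 4.7e-05). pcdh15a measured 1.97, 1.82 and 1.84 RPKM across the hair cell samples, against 0.05, 0.10 and 0.02 RPKM across the nsSC samples. Its hair cell samples were nearly equal, and its log2 fold change was 3.69 ± 0.21 (SE, limma adjusted p = 2.9e-06). Which of the pair had the larger fold change depended on the pseudocount, since pcdh15a and pcdh15b were at 1.45 and 3.02 with 1 RPKM and at 5.02 and 3.91 with 0.01 RPKM.

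pcdh15b made up 89.3% ± 2.74 (SD, n = 3) of the summed RPKM of the pair in hair cells, and was 6.32 to 11.1 times as high as pcdh15a in the 3 samples. In nsSCs the share was 84.8% to 98.6%, at summed levels of only 0.66 to 1.54 RPKM, so that the shares of the cell types overlapped. Another entry, si:ch211-253p2.2, has a name that RefSeq gives as a synonym of pcdh15b. It measured 1.89, 2.28 and 2.01 RPKM across the hair cell samples, was listed at 0 in all nsSC samples, and was called higher in hair cells (adjusted p = 1.7e-07 from limma). Like pcdh15b it was highest in hair cell replicate 2 and lowest in replicate 1, an order that clrn2 and the main cdh23 entry shared.

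The main cdh23 entry was higher than both protocadherin-15 genes together in each hair cell sample. Its ratio to the sum of pcdh15a and pcdh15b was 1.82, 1.33 and 1.53 in hair cell replicates 1, 2 and 3. The second cdh23 entry and the related entries of cdh23 and pcdh15b were left out of it. The cadherin-23 values differed little between these samples, and the ratio was lowest in replicate 2, where pcdh15b was highest.

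Harmonin, the scaffold at the upper end of the tip link, had by far the most abundant transcript of the group. ush1c measured 147.91, 148.14 and 145.13 RPKM across the hair cell samples, which placed it at rank 680 of the 31701 entries. The nsSC samples had 1.5, 0.91 and 1.68 RPKM of it, in the order of their replicate numbers. The hair cell samples differed by little. The lowest nsSC sample, replicate 2, was also the lowest for pcdh15b and the second cdh23 entry, but the highest for pdzd7a, dfnb31b and pcdh15a. The log2 fold change was 6.69 ± 0.20 (SE, limma adjusted p = 1.2e-07). ush1c made up 49.9% ± 1.49 (SD, n = 3) of the summed RPKM of the 10 entries in hair cells, and its level was 5.04 to 5.63 times that of the main cdh23 entry.

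The clarin genes encode small membrane proteins of the hair bundle and synapse, of which CLRN1 is the gene of a form of Usher syndrome with progressive hearing loss. clrn2 measured 55.58, 63.40 and 59.69 RPKM across the hair cell samples and at 0.03 RPKM in nsSC replicate 1, with a 0 for nsSC replicates 2 and 3. clrn1 measured 17.50, 15.53 and 16.71 RPKM across the hair cell samples and was listed at 0 in all nsSC samples. Among these samples both therefore had values, at the 2 decimals of the table, only in hair cells but for a trace of clrn2 in a single nsSC sample. limma called both, with an adjusted p = 9.8e-09 for clrn2 and 1.1e-08 for clrn1. The log2 fold change of clrn2 was 9.09 (standard error 0.15), a value that rests on the pseudocount, since it was 5.90 with 1 RPKM and 11.87 with 0.01 RPKM in its place.

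clrn2 was the higher clarin in each hair cell sample, at 78.2% ± 2.14 (SD, n = 3) of the pair. The values moved in opposite order over the samples, with clrn2 highest and clrn1 lowest in hair cell replicate 2. CLRN3, another member of the family, was listed at 0 in all 6 samples.

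The ankle link scaffolds were all higher in hair cells, pdzd7a at the level of pcdh15b and the whirlin genes below it. pdzd7a measured 15.01, 14.68 and 16.75 RPKM across the hair cell samples, against 0.16, 0.19 and 0.10 RPKM across the nsSC samples, a log2 fold change of 5.98 ± 0.17 (SE, limma adjusted p = 9.3e-08). The whirlin gene dfnb31a measured 6.95, 6.71 and 7.40 RPKM across the hair cell samples, against 0.11, 0.23 and 0.25 RPKM across the nsSC samples. Its paralog dfnb31b measured 1.90, 1.97 and 1.79 RPKM across the hair cell samples, against 0.11, 0.31 and 0.14 RPKM across the nsSC samples. The hair cell samples of each gene agreed closely, and those of dfnb31a lay above all values of dfnb31b, while in nsSCs both whirlin genes had similar values. The log2 fold changes were 4.62 ± 0.22 for dfnb31a (SE, limma adjusted p = 1.0e-06) and 2.85 ± 0.26 for dfnb31b (SE, limma adjusted p = 3.8e-05).

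dfnb31a made up 77.3% to 80.5% of the whirlin pair in hair cells, against 42.6% to 64.1% of it in nsSCs, so that its share was higher in every hair cell sample. pdzd7b, the paralog of pdzd7a, measured 5.67, 6.63 and 6.07 RPKM across the hair cell samples, against 0.31, 0.46 and 0.30 RPKM across the nsSC samples. pdzd7a was thus the higher of this pair in hair cells, at 68.9% to 73.4%, and the lower in nsSCs, at 25.0% to 34.0%. The nsSC shares rest on levels under 0.5 RPKM for each gene of these pairs.

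**Figure D2:**
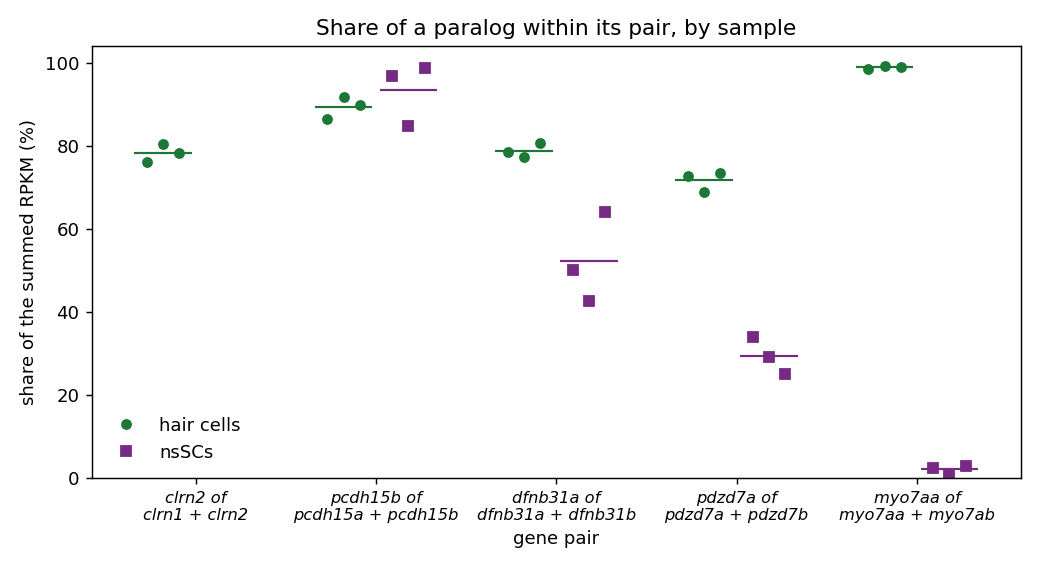
Share of a paralog in the summed RPKM of its pair, in percent, for each hair cell sample (circles) and nsSC sample (squares), with a line at each mean. The shares of the cell types overlapped for pcdh15b and did not for dfnb31a, pdzd7a and myo7aa, and no nsSC share is drawn for clrn2, since both clarins were at or near 0 there.

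In hair cells the order of the mean levels was ush1c, clrn2, the main cdh23 entry, clrn1, pcdh15b, pdzd7a, dfnb31a, dfnb31b, pcdh15a and the second cdh23 entry. The ranges of neighbors overlapped for clrn1 and pcdh15b, for pcdh15b and pdzd7a, and for dfnb31b and pcdh15a, so that these cannot be ordered. The other neighbors were in the same order in each of the 3 samples. At the ends of this order, ush1c was above 97.9% of the entries of the table in hair cells and the second cdh23 entry above 59.5%. In nsSCs ush1c and pcdh15b stood highest, at 1.36 ± 0.403 and 1.15 ± 0.511 RPKM (SD, n = 3). Their ranges overlapped, but ush1c was the higher in each of the 3 nsSC samples, at 1.5 against 1.49 RPKM in replicate 1.

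The spread between hair cell samples set pcdh15b apart from the other entries. Its coefficient of variation was 23.9%, while the median over the 4148 genes within 2-fold of its level was 6.67%, and 98.6% of those genes varied less. The next largest coefficient was 17.5%, for the second cdh23 entry, against a median of 20.6% at its lower level. For ush1c the coefficient was 1.14%, where genes of its level had a median of 3.77%. The remaining 7 entries were between 4.34% and 7.18%. Among them pcdh15a (4.34%), dfnb31b (4.81%) and dfnb31a (4.99%) were also well below the medians at their levels, 16.8%, 16.7% and 9.43%. clrn2 (6.57%) was above the median at its level, 4.55%, and pdzd7a (7.18%) slightly above that at its level, 6.75%. No replicate was high or low throughout, since hair cell replicates 1, 2 and 3 were the highest for 2, 5 and 3 of the 10 entries.

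The level left in nsSCs differed between the entries. As a share of the mean in hair cells it was 0 for the main cdh23 entry and clrn1, 0.0168% for clrn2, 0.927% for ush1c and 0.969% for pdzd7a. It was 2.80% for dfnb31a, 3.02% for pcdh15a, 3.81% for the second cdh23 entry, 7.03% for pcdh15b and 9.89% for dfnb31b. Of the 14 hair cell markers, 13 were between 0 and 0.632%, and atoh1a was at 5.76%. The median was 1.89% over the 10 entries and 0.443% over the markers. The sets differ in level, with hair cell means of 1.22 to 147 RPKM for the entries and 14.5 to 21338 RPKM for the markers. The markers include pou4f3, whose promoter drives the GFP, and several transcripts that the paper lists as enriched in hair cells. A low share in nsSCs was thus partly built into their choice. These shares are for levels that the scaling of the samples can move, and whether the values in nsSCs come from hair cell RNA was not tested.

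**Figure D3:**
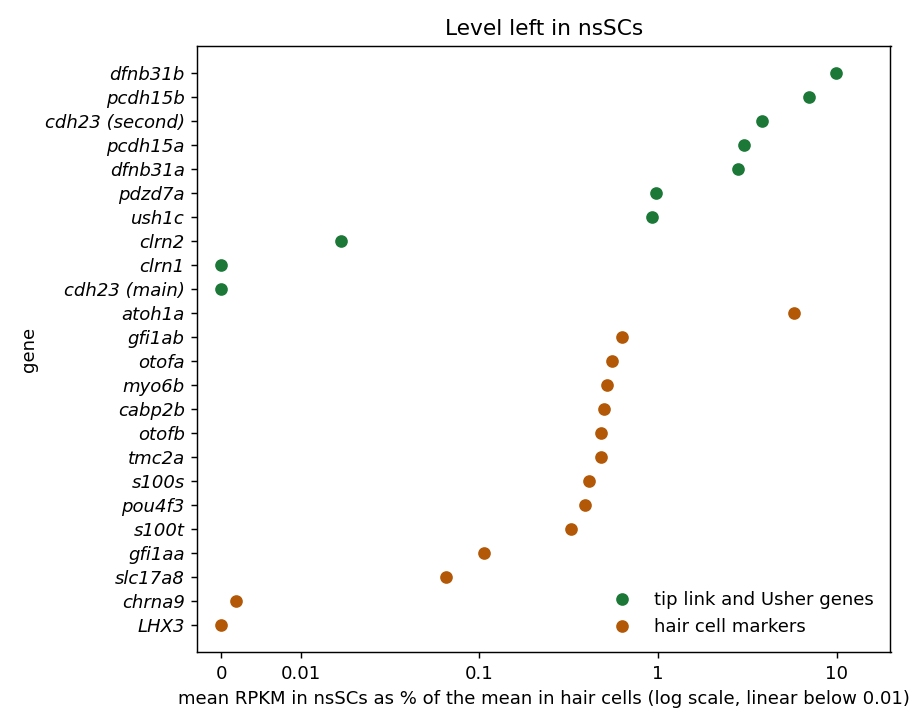
Mean RPKM in nsSCs as a percentage of the mean in hair cells, on a log axis that is linear below 0.01%, for the 10 entries and for 14 hair cell markers. pcdh15b (7.03%) and dfnb31b (9.89%) were above every marker, while cdh23 (main), clrn1 and clrn2 were at or near 0.

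Other genes of the Usher complex and of the tip link moved in both directions. Of 12 genes of this list in the table, 10 passed the filter. Of these, 7 were called as higher in hair cells (against 31.0% of all genes tested), 2 as higher in nsSCs (against 35.4%), and 1 was not called. Their median log2 fold change was 3.19. CLRN3 and ush1gb, a paralog of the SANS gene, were listed at 0 in all 6 samples.

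Among partners at the upper end of the tip link, the SANS gene ush1ga measured 15.80, 14.89 and 13.27 RPKM across the hair cell samples, against 0.06, 0.02 and 0.02 RPKM across the nsSC samples (log2 fold change 6.80 ± 0.17 SE, limma adjusted p = 5.0e-08). The myosin VIIa paralogs went in opposite directions. myo7aa, known in zebrafish as the gene of the mariner mutants with defects of balance and hearing, measured 5.53, 6.75 and 7.54 RPKM across the hair cell samples, against 0.02, 0.01 and 0.02 RPKM across the nsSC samples. myo7ab measured 0.09, 0.05 and 0.08 RPKM across the hair cell samples, against 0.79, 1.09 and 0.68 RPKM across the nsSC samples. Neither gene overlapped between the cell types, and the log2 fold changes were 5.84 ± 0.16 for myo7aa (SE, limma adjusted p = 8.2e-08) and -2.44 ± 0.21 for myo7ab (SE, limma adjusted p = 2.7e-05). With a pseudocount of 1 RPKM, myo7ab fell short of 2-fold, at -0.78. The values of ush1ga and myo7aa rest on the pseudocount, at 3.92 and 2.89 with 1 RPKM and at 8.52 and 7.97 with 0.01 RPKM. myo7aa made up 98.4% to 99.3% of the pair in hair cells, against 0.909% to 2.86% in nsSCs.

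The calcium- and integrin-binding proteins CIB2 and CIB3 bind the transduction channel, and their genes were the most abundant of the list in hair cells. CIB3 measured 238.96, 222.96 and 221.43 RPKM across the hair cell samples and at 0.15 and 0.45 RPKM in nsSC replicates 1 and 2, and was listed at 0 in nsSC replicate 3. cib2 measured 188.98, 178.30 and 192.25 RPKM across the hair cell samples, against 6.83, 7.22 and 7.47 RPKM across the nsSC samples. Both were above ush1c in every hair cell sample, and cib2 was also the higher of the pair in every nsSC sample. Their log2 fold changes were 9.89 ± 0.55 for CIB3 (SE, limma adjusted p = 2.6e-06) and 4.68 ± 0.06 for cib2 (SE, limma adjusted p = 4.1e-09). The value of CIB3 rests on the pseudocount and on single nsSC samples, since it was 7.59 with 1 RPKM and 11.30 with 0.01 RPKM, and 10.49 without nsSC replicate 2 and 9.26 without nsSC replicate 3.

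adgrv1, the gene of the large adhesion receptor of the ankle links, measured 4.02, 4.14 and 3.64 RPKM across the hair cell samples, against 1.97, 2.16 and 2.07 RPKM across the nsSC samples. Its samples did not overlap, but its log2 fold change of 0.90 ± 0.11 (SE, limma adjusted p = 0.00020) stayed under 2-fold. The scalings moved it both ways. It was called, at 1.37, when each sample was scaled to the same total RPKM, and was 0.43 with median-ratio scaling. In hair cells it was below dfnb31a and above dfnb31b in each sample.

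The remaining genes of the list are not specific to the hair bundle. ift88, which serves intraflagellar transport in cilia, reached 51.4 ± 5.48 RPKM (SD, n = 3) in hair cells against 8.40 ± 0.419 RPKM in nsSCs, and the histidyl-tRNA synthetase gene hars at 81.1 ± 6.09 and 40.2 ± 5.13 RPKM. Both were called, ift88 with a log2 fold change of 2.59 and hars at the threshold with 1.01, which was 0.54 with median-ratio scaling and as low as 0.96 when a replicate was left out. The sulfatase gene arsg, which is tied to an atypical Usher syndrome in humans, measured 3.19, 4.73 and 4.15 RPKM across the nsSC samples, and its 3 hair cell values were 0 (adjusted p = 1.9e-07 from limma). It was, with myo7ab, the gene of the list that was higher in nsSCs.

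**Figure D4:**
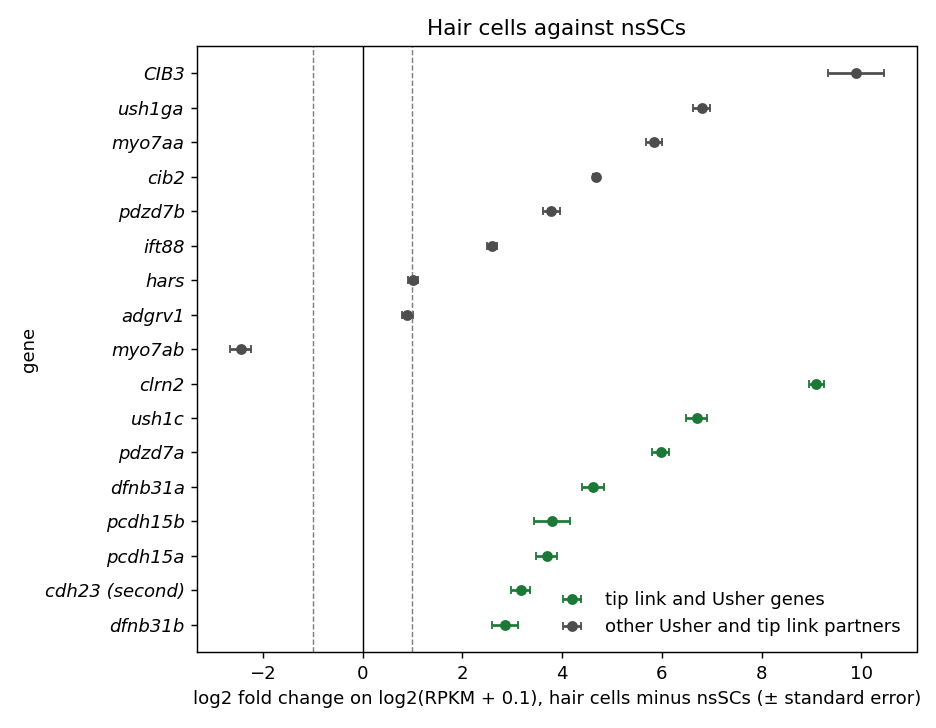
Log2 fold change on log2(RPKM + 0.1), hair cells minus nsSCs, with the standard error from limma, for the entries above 0 in nsSCs and for the partners above 0 in hair cells. Dashed lines mark 2-fold in either direction, and myo7ab (-2.44) lies on the side of nsSCs while adgrv1 (0.90) lies inside the lines.

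The channel complex at the lower end of the tip link was higher in hair cells throughout. All 6 of its genes in the table (tmc1, tmc2a, tmc2b, tmie, lhfpl5a and lhfpl5b) were called, against 31.0% of all genes tested. The median log2 fold change of the 6 was 7.48, a value that rests in part on the pseudocount. With 1 RPKM in its place all 6 were lower, from 0.92 for lhfpl5b to 7.27 for tmc2a. tmie, whose product joins the channel to the tip link, measured 53.82, 50.18 and 49.22 RPKM across the hair cell samples and was listed at 0 in all nsSC samples. lhfpl5b was the lowest of them, at 0.79, 1.23 and 0.71 RPKM in hair cells and listed at 0 in all nsSC samples, and fell short of 2-fold, at 0.92, with a pseudocount of 1 RPKM, while lhfpl5a reached 129 ± 4.24 RPKM (SD, n = 3) in the hair cell samples.

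Of 11 entries for proteins of the stereocilia tips and for partners of whirlin, 10 were tested, with a median log2 fold change of 3.98. Of these, 7 were called as higher in hair cells (against 31.0% of all genes tested) and 1 as higher in nsSCs (against 35.4%). The 2 not called, mpp1 and nlgn2a, had means of 2.81 and 0.183 RPKM in hair cells, against 3.92 and 0.423 RPKM in nsSCs. Myosin XV carries whirlin to the tip, and its genes myo15ab and myo15aa had mean levels of 19.4 ± 0.598 and 16.2 ± 0.443 RPKM in hair cells (SD, n = 3), against 0.03 ± 0.0265 and 0.153 ± 0.0551 RPKM in nsSCs. The levels of dfnb31a and dfnb31b together were thus below those of either myosin XV gene in hair cells. The espin genes espn and espnla, for actin crosslinkers, and EPS8L2, for an actin capping protein, had means of 67.8 ± 6.11, 64.6 ± 1.23 and 42.2 ± 2.63 RPKM in hair cells, against 1.12 ± 0.552, 0.127 ± 0.0586 and 2.11 ± 0.319 RPKM in nsSCs, and all 3 were called. The gene called higher in nsSCs was gnai3, of a G protein subunit, with 0.81, 0.89 and 0.23 RPKM across the nsSC samples and a value of 0 in each hair cell sample, and it fell short of 2-fold, at -0.69, with a pseudocount of 1 RPKM.

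The genes whose 6 values lay closest to those of cdh23, pcdh15a and ush1c were sought by Euclidean distance on log2(RPKM + 0.1) among 22364 other genes tested. Those nearest to the main cdh23 entry were lrrc38a, prr15lb and myo3b, at distances of 0.07, 0.14 and 0.15. lrrc38a measured 26.36, 29.75 and 28.95 RPKM across the hair cell samples and, like cdh23, was listed at 0 in all nsSC samples. myo3b, a gene of a class III myosin of the stereocilia tips, measured 26.76, 29.43 and 26.81 RPKM across the hair cell samples and at 0.01 RPKM in a single nsSC sample. For pcdh15a the nearest were hspbap1, si:dkeyp-72e1.9 and abhd6a, at distances of 0.34, 0.35 and 0.38. For ush1c they were rcan3, CR812481.1 and lrtm2a, at 0.60, 0.69 and 0.70, and rcan3 reached 175 ± 7.51 RPKM (SD, n = 3) in hair cells against 1.61 ± 0.626 RPKM in nsSCs. With 3 samples in each cell type, such closeness reflects mainly a like level in both.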

How the data were processed

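The authors amplified RNA of picked cells with the SMART-Seq v4 kit, sequenced Nextera libraries, used CLC Genomics Workbench for mapping to GRCz10, and deposited RPKM values, rounded to 2 decimals. HTSeq count is also named; versions and the handling of multiply mapped reads are not given in the sources used here. Of 35919 table rows, 31701 hold values. The 22374 genes whose mean reached 0.1 RPKM in hair cells, nsSCs or both entered limma 3.58.1 (statmod 1.5.0, R 4.3.3) on log2(RPKM + 0.1), with trended, robust variance moderation and no covariate. The fit was tested on simulated data. Summaries and plots used Python 3.11.15, pandas 2.3.3, numpy 2.4.6 and matplotlib 3.10.9. The members and the gene lists, written from general knowledge, were chosen with earlier results of these data known. One gene of the Usher partner list is not reported here and was left out of its counts. All member entries and all tested genes of the Usher partner and channel lists are named. From the other lists, up to 3 called genes per direction by mean RPKM are named. Related entries, the myosin XV genes, anks4b, mpp1, nlgn2a and genes at 0 were added after their values were seen. Alternatives were other pseudocounts, filters, fold minimums and scalings, a replicate block, leaving out each sample and joining entries. Another kept the variance moderation but without the trend and robust options. The depth of the samples is unknown from RPKM. No genome of this build or sequence table was at hand, so that no coordinates or sequences are given.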

Additional observations from a re-analysis of the deposited data

How the results depend on the processing

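All 10 entries were called higher in hair cells under 16 of the 18 alternatives, and under the other 2, which join entries of cdh23 or of cdh23 and pcdh15b, all 9 were called. Joining them with the related entries was chosen after seeing the data. Leaving out a replicate gave 10 each time. Each of the 155 single fold changes of the entries that could be refitted kept its direction and its call, with a largest adjusted p = 0.0011 from limma. The values moved most with the pseudocount, for example from 1.08 to 4.49 on the log2 scale for the second cdh23 entry. Median-ratio scaling moved the median log2 fold change of all genes tested to -0.48 and scaling to the same total RPKM to 0.49. The lowest value of an entry under any alternative was 1.08, for the second cdh23 entry with a pseudocount of 1 RPKM. Such a pseudocount was not combined with a scaling, so that the calls under both were not tested. Of the other Usher and tip link genes, 1 in place of 2 was called higher in nsSCs with a pseudocount of 1 RPKM. With a filter of 1 RPKM it was also 1, since myo7ab was then not tested. The 7 called higher in hair cells ranged from 6 to 8, the 6 of the channel complex from 5 to 6, the 7 of tip proteins from 6 to 7, and the gene of tip proteins higher in nsSCs from 0 to 3. The filter of 1 RPKM also left lhfpl5b and gnai3 untested. With the replicate number as a block, 10 of 10 entries were called. Samples that share a number did not deviate together (correlations over genes of -0.047, 0.023 and 0.001 for numbers 1, 2 and 3). Such correlations cannot tell whether these samples came from the same fish. Rounding to 0.01 RPKM limits the values in nsSCs below about 0.1 RPKM.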

Other observations

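The gut brush border has a counterpart of the Usher complex. In it the harmonin that ush1c encodes is joined by ANKS4B, myosin VIIb and the calmodulin-like light chain CALML4. Of 4 entries of this list in the table, 3 were tested. calml4a measured 872.42, 822.04 and 871.44 RPKM across the hair cell samples, against 1.28, 1.62 and 1.36 RPKM across the nsSC samples, a log2 fold change of 9.14 ± 0.09 (SE, limma adjusted p = 1.9e-09). It was higher than ush1c in each hair cell sample and did not overlap between the cell types. Its paralog calml4b was listed at 0 in all 6 samples. anks4b, a relative of the SANS genes, measured 1.96, 2.75 and 2.35 RPKM across the hair cell samples, against 1.24, 1.17 and 1.2 RPKM across the nsSC samples. Its log2 fold change of 0.90 ± 0.15 (SE, limma adjusted p = 0.0011) stayed under 2-fold, but was 1.36 with each sample scaled to the same total RPKM and 1.02 without hair cell replicate 1. myo7bb measured 0.11, 0.09 and 0.2 RPKM across the nsSC samples and 0 in each hair cell sample, and it was called higher in nsSCs (adjusted p = 0.0031 from limma) except with a pseudocount of 1 RPKM, at a fold minimum of 4 or without nsSC replicate 3, and it was not tested with a filter of 1 RPKM.

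Photoreceptors are the other cells in which Usher genes are known to act, and markers of them were looked up too. Of 8 photoreceptor markers, 6 had a 0 for each hair cell sample, among them rho, gnat1 and opn1sw1. The summed level of the 8 was 3.25 to 4.95 RPKM in hair cells and 0.02 to 0.07 RPKM in nsSCs. The 2 that passed the filter, pde6a and gnat2, were called higher in hair cells, as were 31.0% of all genes tested. Across the hair cell samples pde6a measured 2.03, 2.26 and 4.09 RPKM, and gnat2 1.40, 0.99 and 0.86 RPKM. The mean of pde6a in hair cells, 2.79 RPKM, was above that of pcdh15a, 1.88 RPKM.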
